A study of Mus musculus with 38 samples.

Results

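VIM-3039 and VM-3055 are cell lines derived from mouse kidney tumours. RNA sequencing of the 2 lines, each cultured with doxycycline (Dox), was compared across all genes to ask how their transcriptomes differ while MYC is induced. The comparison takes the 4 libraries titled VIM-dox and the 4 titled VM-dox, 8 of the 38 in the series, chosen by title and not by any measured value. In both lines the Vhl F/F alleles were recombined by KspCreERT2, and Tet-O-Myc is driven through Ksp-rtTA, an activator expressed in renal tubules that needs Dox. Loss of Vhl and induced MYC are thus common to both groups, whose labels read Vhl-/- and MYC +. The VIM label adds Ink-/-/Arf-/-, a germline deletion of the Cdkn2a (Ink4a/Arf) locus that VM mice lack. Each genotype is represented by 1 line from 1 tumour, so genotype and line cannot be told apart in any value below. Nothing in the labels says that the 4 libraries of a line came from separate cultures, and the p-values measure the spread between them, which may be technical.

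Cdkn2a encodes a pair of tumour suppressors from overlapping reading frames. p16Ink4a blocks the kinases Cdk4 and Cdk6 that carry cells out of G1, and p19Arf binds Mdm2, the ubiquitin ligase that removes p53, and so stabilizes p53. Vhl marks the hypoxia-inducible factors for degradation, and tubule epithelium that loses it keeps the hypoxia programme on in normal oxygen, as in clear cell renal carcinoma. MYC drives ribosome production and cell cycle entry, and is among the signals that switch Arf on.

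Values are the authors' normalised units, RSEM estimated counts rescaled by library to an upper quartile of 1000. They are not divided by gene length, so levels are compared between lines and not between genes. Where a pair of levels is given without the lines, VM-3055 comes first. The strand setting of the counting is not given in the sources used here, so reads of overlapping genes cannot be told apart. Among the genes concerned are Eras, Cdk4, Ccna2, Ccnd2, Tagln, Timp1, Mest, Iapp, Six3, Serp1, Hoxa11, Hoxb2 and the pair Col4a1 and Col4a2. Others below, such as Car9, Pkd1l2, Ephb1, Wwtr1, Wnt7b, Ctgf, Hoxb6 and Hoxb7, also overlap an annotated gene. The floor was set at 3 estimated reads, at most 2.63 units in a VM-3055 and 2.42 in a VIM-3039 library, at a depth of 14372900 to 17335300 estimated reads in VM-3055 and 15945300 to 19856300 in VIM-3039 libraries. A gene passed when limma on log2(units + 1) gave an adjusted p under 0.05 and a log2 difference, VIM-3039 minus VM-3055, of more than 1 in either direction. Libraries of the same line correlated at 0.995 to 0.997 on the log2 scale, over 10239 genes averaging at least 50 units in the 8 libraries. Libraries of different lines correlated at 0.83 to 0.84, over 10522 genes with at least 50 units in the higher line. The kidney genes Cdh16 and Pax8 were expressed in both lines, with Pax8 at 1945 ± 61.4 and 1878 ± 43.4 units (SD, n = 4 each). Endothelial markers summed to 5.09 to 13.2 units in VM-3055 and 5.66 to 12.5 in VIM-3039 cells over 12 genes, with Cdh5, Tie1, Cldn5 and Sox17 at a mean of 0 or near it. The 14 leukocyte markers summed to 365 to 408 units in VM-3055 and 287 to 315 in VIM-3039 cells, nearly all of it Csf1r, while Cd8a, Emr1, Laptm5 and Tyrobp were at 0 in every library of both lines. Of 14 fibroblast markers 9 were tested, and Acta2, Pdgfrb, Postn and Col1a1 passed as higher in VIM-3039 cells and Col1a2 as lower. That is 55.6% of those tested, against 19.1% of all genes. Only 4 of the markers reached 50 units in the higher line, and of these Acta2 passed as higher and Col1a2 as lower. The 14 markers summed to 1668 to 1793 units in VM-3055 and 2319.5 to 2517 in VIM-3039 cells, mostly S100a4 and Twist2, while Thy1, Lum and Dpt were at 0 in all 8 libraries.

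The deleted locus was read first. Cdkn2a (chromosome 4, 88920377 to 88940557, mm9, the NCBIM37 assembly that gives all gene positions here) had 4030.1, 4189.8, 3524 and 3473 units in the 4 VM-3055 libraries and 34.7, 31.2, 24.9 and 29.1 in the 4 VIM-3039 libraries. The groups lay far apart, and the log2 difference was −6.95 (SE 0.089, limma adjusted p 1.82e-18), the direction that the VIM label gives, although the VIM-3039 values stayed above the floor. Its neighbour Cdkn2b, which encodes the related inhibitor p15Ink4b, had 235 ± 20.3 units in VM-3055 against 514 ± 21.9 in VIM-3039 cells, a difference of 1.13 (adjusted p 1.62e-10). Mtap, on the other side of Cdkn2a, had 5404 ± 163 and 3176 ± 104 units and did not pass at −0.77. Vhl, whose recombined alleles both lines carry, had 13.1 and 12.7 units and did not pass at −0.07. Mouse Myc had 384 and 381 units with Dox (−0.01), lower than the 1364 and 1479 without Dox in the same lines, so these values do not show the induced transgene, whose own level was not read here.

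Of 14060 genes tested, 2691 (19.1%) passed, 1363 higher in VIM-3039 (9.69%) and 1328 lower (9.45%). Most of the passing differences were between 2-fold and 4-fold, 754 of the higher and 826 of the lower genes, but 89 genes were more than 32-fold higher and 62 more than 32-fold lower. The median over all genes was 0.016, in values that the authors scaled library by library. Without the genes of chromosomes 3, 5 and 8, described at the end, 1155 genes were higher and 1023 lower. An adjusted p under 0.05 with no limit on size was reached by 9488 genes (67.5%), and 8619 (61.3%) had values that did not overlap between the lines. Of 10522 genes with at least 50 units in the higher line, 1360 (12.9%) passed, 722 higher (6.86%) and 638 lower (6.06%).

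**Figure D1:**
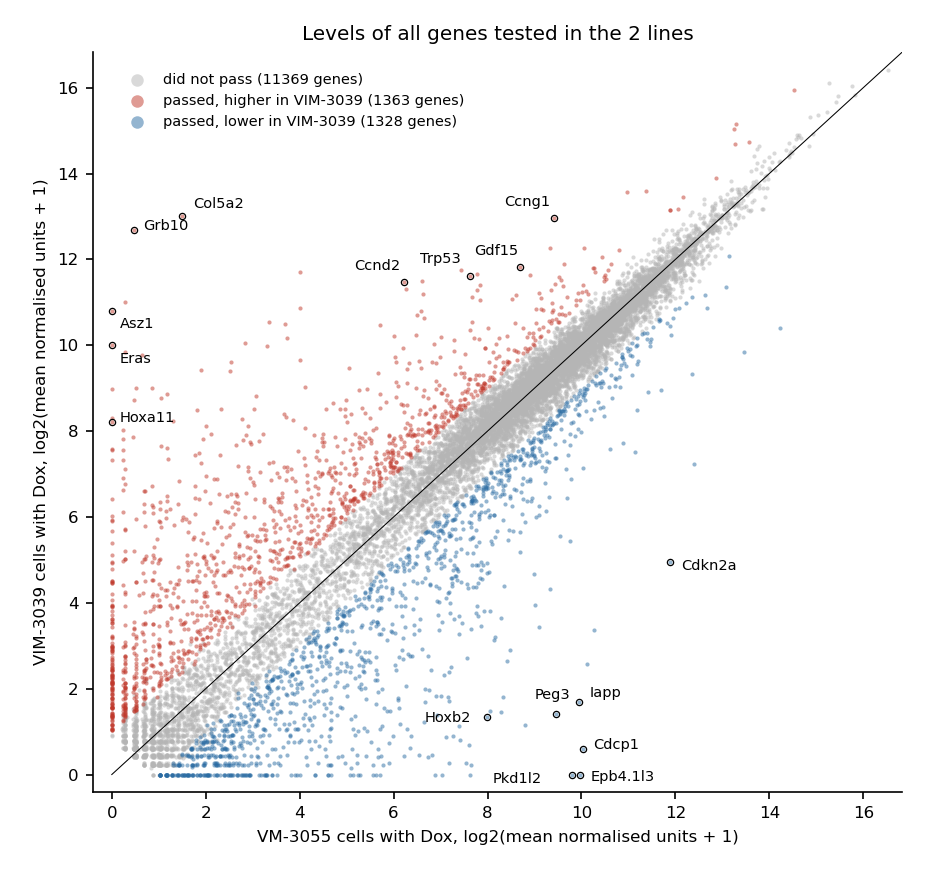
Mean level of each of the 14060 genes tested in VM-3055 (horizontal axis) and VIM-3039 cells with Dox (vertical axis), both as log2(mean normalised units + 1) over 4 libraries; red and blue points passed as higher (1363) and lower (1328) in VIM-3039, grey points did not pass, and the line marks equal levels. Grb10, Asz1, Eras and Hoxa11 sit at the left edge, with almost no signal in VM-3055, and Epb4.1l3, Pkd1l2 and Cdcp1 at the bottom edge, with almost none in VIM-3039.

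p53 and most of its target genes were higher in VIM-3039 cells. Trp53 (chromosome 11, 69393861 to 69405375) , which encodes p53, had 203, 209, 195 and 182 units in VM-3055 against 3141, 3104, 3112 and 3209.6 in VIM-3039 libraries. Every VIM-3039 value was far above the highest VM-3055 value, and the log2 difference was 3.99 (SE 0.045, limma adjusted p 1.11e-18). Of a list of 27 p53 genes, all of them tested, 17 passed as higher and 0 as lower, against 9.69% and 9.45% of all genes, and the median log2 difference of the list was 1.21 against 0.016. Another 6 were higher by less than 2-fold at an adjusted p under 0.05. The exceptions on the other side were Sesn1, a stress sensor upstream of mTORC1, at 329 and 216 units, and the desmosomal gene Perp at 3252 and 2900.5, whose log2 differences of −0.60 and −0.17 did not pass, although their adjusted p was under 0.05.

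Cdkn1a encodes p21, the inhibitor of cyclin-dependent kinases through which p53 halts the cell cycle. It had 563, 562, 546 and 525 units in VM-3055 against 2384, 2389, 2388 and 2395 in VIM-3039 libraries, with no overlap, and a log2 difference of 2.12 (adjusted p 2.63e-17). Ccng1, cyclin G1, a feedback regulator of p53, had 628, 722, 697 and 679.8 units against 7768, 8080.2, 8499 and 7457, a difference of 3.54 (adjusted p 1.82e-18). Eda2r, a death-receptor family member, was close to the floor in VM-3055 libraries at 4.43, 5.96, 2.55 and 6.14 units, against 783 ± 46.5 in VIM-3039 libraries, a difference of 7.14. The secreted stress factor Gdf15 stood at 413 ± 45.2 and 3621 ± 134 units, the AKT inhibitor Phlda3 at 88.2 ± 6.21 and 1213 ± 49, and the autophagy and death regulator Trp53inp1 at 155 ± 11.8 and 1117 ± 66.2. Mdm2, the feedback inhibitor that p19Arf restrains, was among the smaller rises at 1049 ± 16 and 2695 ± 113 units, a log2 difference of 1.36. The apoptosis gene Bax (1.01) and Ckap2 (1.01) only just passed, and at 0.997 each they missed the threshold when TMM factors were applied.

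**Figure D2:**
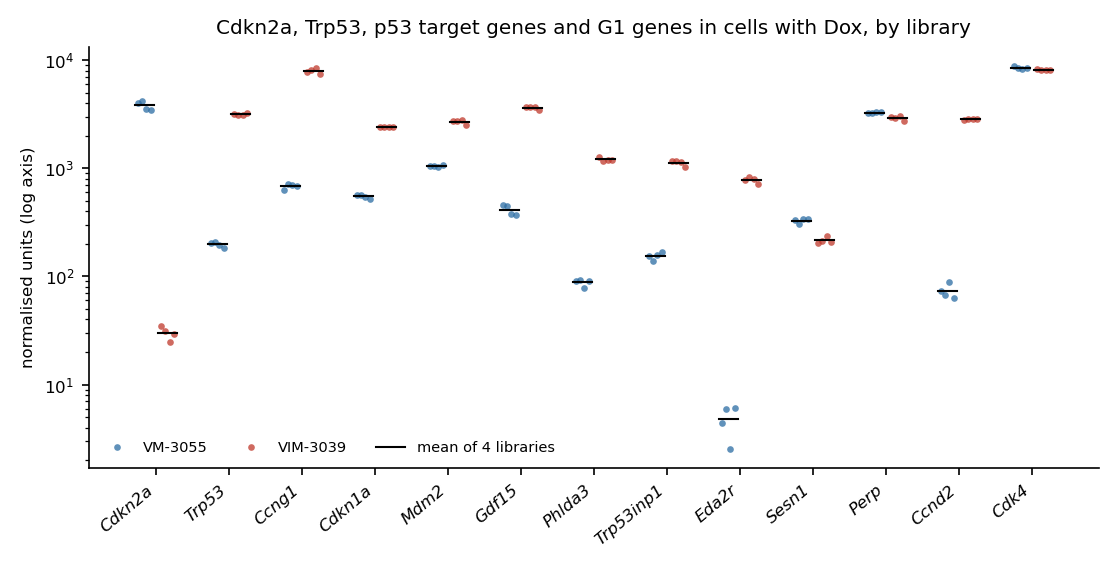
Normalised units on a log axis in each of the 4 VM-3055 (blue) and 4 VIM-3039 (red) libraries with Dox for Cdkn2a, Trp53, 9 further p53 list genes, Ccnd2 and Cdk4; black bars are means. Cdkn2a is the gene of the deleted locus and is lower in VIM-3039, Trp53 and the p53 targets from Ccng1 to Eda2r are higher without overlap, Sesn1 and Perp lie slightly lower, and Cdk4 is nearly level.

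p53 binds DNA as a tetramer at a pair of 10-letter half-sites, so the promoters of the list were searched for 2 such half-sites side by side with at most 2 of 20 letters off the p53 consensus, which reads the same on both strands. RefSeq promoter windows (GRCm38.p6, 250 bases before to 50 after a transcription start) were matched for 15 of the 17 passing genes, and 3 of them held such a pair, against 0.94% of the 27025 genes with a window. None was found in the windows of the 5 matched list genes that did not pass, too few to compare with 3 of 15. The list was made of p53 target genes, so a share above that of all genes says nothing about the 2 lines. The 3 windows are shown 5′ to 3′ on the gene's strand because they hold the pairs found, with the letters of the pair in capitals.
Cdkn1a, chr17:29090729-29091028, plus strand: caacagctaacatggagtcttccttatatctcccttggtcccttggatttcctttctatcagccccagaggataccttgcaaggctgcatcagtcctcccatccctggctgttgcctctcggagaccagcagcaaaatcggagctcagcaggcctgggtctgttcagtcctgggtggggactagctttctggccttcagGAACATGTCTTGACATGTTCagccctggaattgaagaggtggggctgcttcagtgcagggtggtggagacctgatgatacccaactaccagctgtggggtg
Ccng1, chr11:40755237-40755536, minus strand: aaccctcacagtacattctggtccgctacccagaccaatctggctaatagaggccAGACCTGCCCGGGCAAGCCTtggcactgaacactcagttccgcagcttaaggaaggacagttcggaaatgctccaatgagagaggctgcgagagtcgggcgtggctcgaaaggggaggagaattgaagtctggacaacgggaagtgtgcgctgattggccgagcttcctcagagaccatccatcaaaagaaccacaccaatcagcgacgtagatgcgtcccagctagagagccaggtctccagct
Ckap2, chr8:22185770-22186069, minus strand: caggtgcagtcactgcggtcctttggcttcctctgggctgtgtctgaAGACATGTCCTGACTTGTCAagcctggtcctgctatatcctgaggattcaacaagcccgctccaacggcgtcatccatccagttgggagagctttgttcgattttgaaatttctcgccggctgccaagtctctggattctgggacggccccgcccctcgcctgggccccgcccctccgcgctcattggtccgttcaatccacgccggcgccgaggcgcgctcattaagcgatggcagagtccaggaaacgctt
The pairs of Cdkn1a and Ccng1 differ from the consensus at 1 letter and that of Ckap2 at 2. A match describes letters and was not tested for binding in these cells.

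Of 18 CDK inhibitors, G1 cyclins and their partners, the genes around the deleted inhibitor, 3 passed as higher and 1, Cdkn2a, as lower. Their share was 22.2%, against 19.1% of all genes. Those that passed were among the 17 with at least 50 units in the higher line, a level at which 12.9% of genes passed. Ccnd2, the D-type cyclin that pairs with Cdk4 and Cdk6, had the largest rise of the list, with 73.9, 67.2, 89.1 and 63.2 units in VM-3055 against 2770.2, 2865, 2873 and 2828 in VIM-3039 libraries and a log2 difference of 5.26 (adjusted p 1.36e-17). In MYC-2983 cells with Dox Ccnd2 averaged 3943.5 units. The Ccnd2 partner Cdk4 had 8516 ± 217 and 8095 ± 64.3 units, and Cdk6 had 725 ± 43.8 and 366 ± 5.02, at −0.98 just short of the threshold. Cdk6 lies on chromosome 5, whose genes were lower as a group in VIM-3039 cells.

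Proliferation genes were close to level in the 2 lines while Cdkn1a differed by 2.12 on the log2 scale. None of 20 mitosis genes and none of 21 ribosome biogenesis genes passed, with medians of −0.24 and 0.07. The share over all genes was 19.1%. Every gene of these lists had at least 50 units in the higher line, a level at which 12.9% of genes passed. Of the mitosis genes 15 were lower and 1 higher at an adjusted p under 0.05, each by less than 2-fold. Top2a, the topoisomerase of dividing cells, had 10468 ± 299 and 8425 ± 304 units, a log2 difference of −0.31. Of 25 replication genes 1 passed, Ccna2, the S-phase cyclin, with 4910.1, 5063, 5582 and 5269 units in VM-3055 against 2142, 2257, 2315 and 2259.6 in VIM-3039 libraries (−1.21, adjusted p 1.15e-13). Ccna2 lies in the first 60 Mb of chromosome 3, where the median gene differed by −1.13. Rrm2, the ribonucleotide reductase subunit, was 0.48 higher at 4770.3 and 6646 units.

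At the far end of the scale, 44 genes were at or under the floor in every VM-3055 library while averaging at least 50 units in VIM-3039 cells, and 27 genes showed the reverse. For these the fold is a lower bound against the floor, from 19.4 to 2489-fold with a median of 43.2 for the first set, and up to 433-fold for the second. In the same line without Dox, 25 of the 44 and 20 of the 27 were again at the floor. In MYC-2983 cells with Dox, a line whose label names MYC+ and neither deletion, 26 of the 44 and 9 of the 27 averaged at least 50 units. The share of all genes at that level in MYC-2983 cells was not counted, and both sets were picked by their values in VM-3055 and VIM-3039. These counts are therefore a description, and whether a line lost or gained the genes was not tested.

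Grb10 (chromosome 11, 11830511 to 11938686), an imprinted adaptor that restrains insulin and growth factor receptors, showed the largest difference of all genes. It had 0.739, 0.851, 0 and 0 units in VM-3055 against 6198, 6511, 6726 and 6769 in VIM-3039 libraries, at least 2489-fold higher. Asz1 (chromosome 6, 18000964 to 18059061), a germ cell gene of the piRNA pathway, had no signal in any VM-3055 library, against 1817, 1875, 1829 and 1575 units in those of VIM-3039, at least 674-fold higher, and its mean was near 0 in the tumours of both genotypes. Eras (chromosome X, 7501402 to 7505733), a constitutively active RAS family gene of embryonic stem cells, was likewise at 0 against 1085, 1011, 970.5 and 1061 units, at least 392-fold higher, and was at 0 in the tumours of both genotypes. Dusp9, a phosphatase that inactivates MAP kinases, was at 0 in VM-3055 cells and at 503 ± 46.7 units in VIM-3039 cells. Ccnb1ip1, a ubiquitin ligase for cyclin B, was at 0 and 315 ± 30.3 units, and the nuclear receptor gene Nr1h5 was under the floor and at 419.8 ± 84.6. Serpinh1, the collagen chaperone HSP47, was at 0, 0.851, 0 and 0 units against 888, 927, 939 and 887, at least 346-fold higher, while MYC-2983 cells with Dox averaged 16566.

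Among the genes near 0 in VIM-3039 cells, Cdcp1 (chromosome 9, 123079942 to 123125156), a transmembrane substrate of SRC kinases, had 1059.6, 1005, 1066 and 1065 units in VM-3055 against 0.694, 0.693, 0.656 and 0 in VIM-3039 libraries, at least 433-fold lower. Epb4.1l3, a membrane skeleton protein of the band 4.1 family, had 1044, 944, 1002 and 1041 units in VM-3055 libraries and was at 0 in all 4 VIM-3039 libraries, at least 416-fold lower. Pkd1l2, of the polycystin family, had 893 ± 42.2 units against 0, and the small heat shock gene Hspb8 had 129.6 ± 7.24 against 0. The desmosomal cadherin Dsg1a stood at 446 ± 26.4 units in VM-3055 and under the floor in VIM-3039 cells, as did its near copy Dsg1b, between which reads may be divided uncertainly. Iapp, the islet amyloid hormone gene, had 984 ± 71.8 and 2.24 ± 2 units, a log2 difference of −8.45, and the synaptic scaffold gene Homer2 had 1117 ± 57.7 and 4.96 ± 1.62 (−7.60). A search for genes missing from 1 line alone, at the floor in its 8 libraries with and without Dox and at 20 units or more in the other 30, gave 8 in VM-3055, namely Acsf2, Dusp9, Isoc2a, Mmp14, Nudt7, Pgcp, Slc35d2 and Tmem159, and 0 in VIM-3039.

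Of 22 imprinted genes tested, 2 passed as higher and 5 as lower in VIM-3039 cells, against 9.69% and 9.45% of all genes. Peg3, a paternally expressed zinc finger gene, had 794, 671, 718 and 614 units in VM-3055 against 2.33, 1.39, 1.31 and 1.62 in VIM-3039 libraries (−8.05, adjusted p 3.49e-16), and its head-to-head neighbour Usp29 had 46.3 ± 5.81 against 0. Mest, paternally expressed as well, was higher at 137 ± 10.7 and 423 ± 26.1 units. Of 14 germline genes tested, 6 passed as higher and 2 as lower, but of these only Asz1 and Xlr3b reached 50 units, with Xlr3b at 0 in VM-3055 against 84.9 ± 11.3 in VIM-3039 cells, and it belongs to a family of near copies on the X chromosome.

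**Figure D3:**
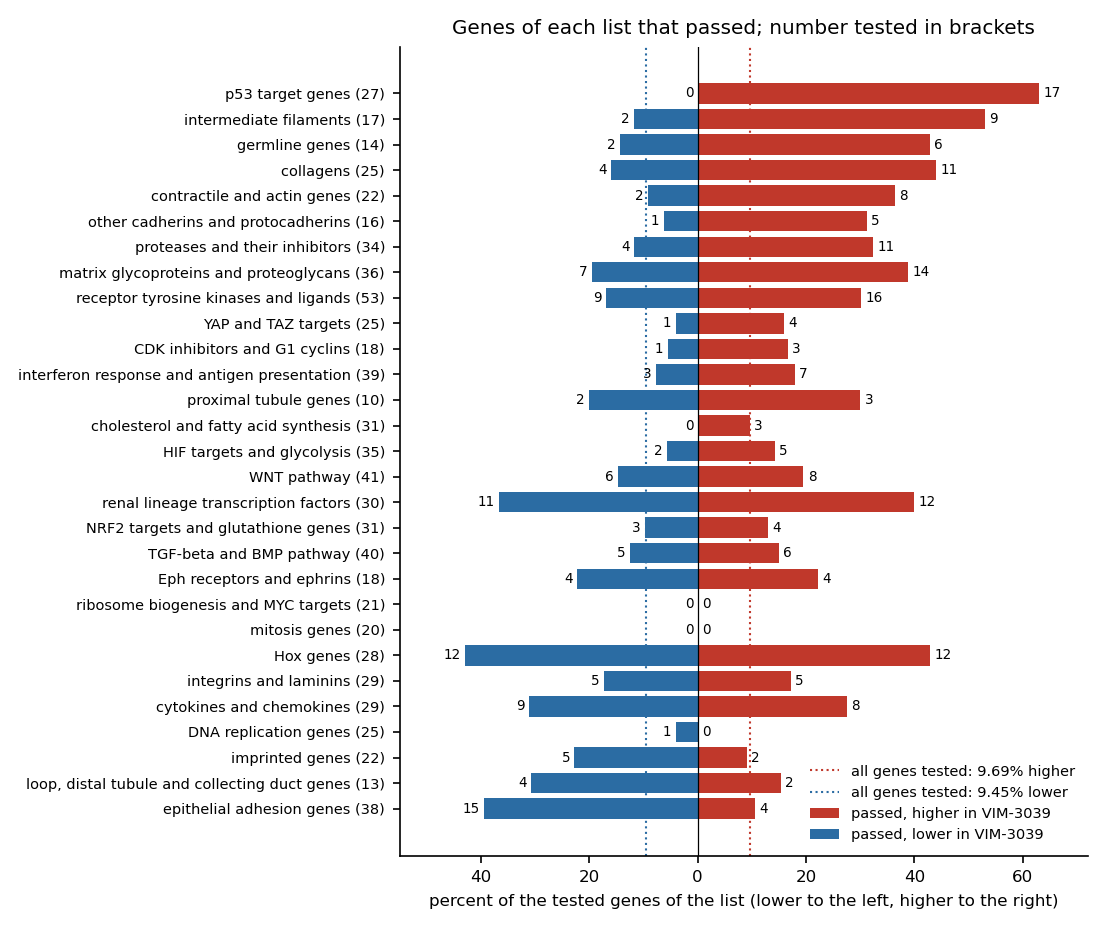
Percent of the tested genes of 29 gene lists that passed as higher (red, right) or lower (blue, left) in VIM-3039 cells, with the counts at the bar ends and the number tested in brackets; dotted lines mark the 9.69% and 9.45% of all genes. The p53 list has 17 higher and 0 lower genes, the epithelial adhesion list 4 and 15, the Hox list 12 and 12, and the mitosis and ribosome biogenesis lists 0 and 0.

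More collagen genes passed as higher than as lower in VIM-3039 cells. They were 11 and 4 of the 25 tested, against 9.69% and 9.45% of all genes, with a median of 0.72. Col5a2, a fibril-regulating chain, had 2.22, 1.7, 2.55 and 0.877 units in VM-3055 against 7767, 8310.3, 8656 and 8201 in VIM-3039 libraries, a log2 difference of 11.54 (adjusted p 1.82e-18). Col4a1, a main chain of basement membrane collagen, had 16.3, 19.6, 12.7 and 11.4 against 1728, 1974, 1980.3 and 1809.6 units (6.90), and Col4a2, transcribed from the shared promoter in the other direction, had 89.99 ± 21 and 1668 ± 87.7 (4.22). Col4a6 and Col8a1 were under the floor in VM-3055 cells, at 186 ± 14.2 and 199.9 ± 28.8 units in VIM-3039 cells. The opposite direction was taken by Col6a1, with 1038 ± 80.4 and 469 ± 16.5 units, by its partner Col6a2, by Col27a1, and by Col1a2 with 89.2 ± 11.2 and 20.9 ± 3.96. In tumours Col4a1 averaged 10826 units in VM and 4072 in VIM tumours.

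Other matrix genes moved in both directions. Of 36 matrix glycoprotein and proteoglycan genes 14 were higher and 7 lower, with the paired example of the elastic fibre genes Fbln2, at 3.34 ± 0.839 and 245 ± 18.9 units, and Fbln1, at 370.5 ± 28.7 and 50.3 ± 6.76. Of 34 proteases and inhibitors 11 were higher and 4 lower. For both lists the shares over all genes were 9.69% higher and 9.45% lower. Adamts5, an aggrecan-cleaving protease, had 15.5, 14.5, 10.2 and 20.2 units in VM-3055 against 3159, 3352, 3554 and 3290.4 in VIM-3039 libraries (7.73, adjusted p 5.15e-17). The protease inhibitor Serpine2 was under the floor against 225 ± 18.1 units, and the metalloprotease inhibitor Timp1 had 169.8 ± 10.9 and 720 ± 47.3. Of 29 integrin and laminin genes 5 passed as higher and 5 as lower, 34.5% against 19.1% of all genes, while 2 more were higher and 10 more lower by less than 2-fold at an adjusted p under 0.05, with a median of −0.34. Among them were the fibronectin receptor chain Itga5 at 522 and 1840.1 units, its partner Itgb1 at 13693 and 19536, and the epithelial laminin chain Lama1 at 459.9 and 81.2, log2 differences of 1.81, 0.51 and −2.52.

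Of 22 contractile and actin genes tested, 8 passed as higher in VIM-3039 cells and 2 as lower, against 9.69% and 9.45% of all genes. Acta2, smooth muscle actin, had 1.48, 0, 0.849 and 0.877 units in VM-3055 against 441, 510.2, 615 and 473 in VIM-3039 libraries, at least 194-fold higher. Tagln, an actin-binding protein of smooth muscle, had 87.2, 103, 82.3 and 104 against 1663, 1858, 2083 and 1566 units (4.23). Calponin Cnn2 had 98.2 ± 6.13 and 2327 ± 149.7 units, and the myosin light chain Myl9 was under the floor against 97.8 ± 24.1. MYC-2983 cells with Dox averaged 17021 units for Acta2, 17073 for Tagln, 3729 for Cnn2 and 1309 for Myl9, each above its level in both lines. Myocd, the coactivator of smooth muscle genes, was among the 2 genes that passed as lower, with 29 units in VM-3055 against 0.347 in VIM-3039 cells, and Mylk, the myosin light chain kinase, was the other. Acta2 is also among the 14 fibroblast markers, whose summed level was higher in VIM-3039 cells. Its own mean of 510 units there, against 0.801 in VM-3055, is part of that sum, so the sum is not separate from the Acta2 difference. S100a4, another of these markers, had 1134 and 843 units. The part of fibroblast marker levels in the collagen and contractile differences was not tested. Of 25 genes of the YAP and TAZ group 5 passed, against 19.1% of all genes. All 25 had at least 50 units in the higher line, a level at which 12.9% of genes passed. Of the 5, 4 were higher, among them Ctgf at 2669 ± 289.5 and 12367 ± 1259 units and Ankrd1 at 1392 ± 94 and 4238 ± 426. The only gene of the 25 that passed as lower was Wwtr1, which encodes TAZ itself, at 2817 ± 92.8 and 1012 ± 36.7 (−1.48), and it too lies in the first 60 Mb of chromosome 3.

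More epithelial adhesion genes passed as lower than as higher in VIM-3039 cells. They were 15 and 4 of the 38 tested, against 9.45% and 9.69% of all genes, with a median of −0.71, and 6 more were lower and 3 more higher by less than 2-fold at an adjusted p under 0.05. The tight junction protein gene Ocln had 221, 201, 237 and 218 units in VM-3055 against 16, 10.4, 13.1 and 17 in VIM-3039 libraries (−3.89, adjusted p 1.78e-12), and Cldn4, a claudin, had 129, 120, 121 and 126 against 15.3, 11.8, 15.1 and 18.6 (−2.97). Desmosomal Ppl stood at 878 ± 109 and 118 ± 12.3 units, and Spint1, an inhibitor of epithelial serine proteases, at 171 ± 12.3 and 21.2 ± 4.6. The surface glycoprotein gene Cd24a went the other way, at 4579.8 ± 238 and 11292 ± 384. Of the 19 passing genes 18 averaged at least 50 units in a tumour group, and all 18 had a higher mean in the 3 VIM tumours than in the 3 VM tumours, or 17 of the 18 without VM tumour replicate 2. Thus 3 of the 18 had the direction of the cell lines, against 59.4% of all genes tested, and that difference between cells and tumours was not tested.

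Keratins also parted. Krt7, of simple ducts, had 331, 320, 295 and 295 units in VM-3055 against 1.39, 2.77, 1.97 and 0.808 in VIM-3039 libraries (−6.88), and Krt17 had 253 ± 22 and 29.3 ± 4.03 (−3.07). These were the 2 lower genes of 17 intermediate filament genes tested, and 9 were higher, among them Krt19 at 195 ± 7.07 and 1317 ± 20.4 units (2.75). Of the 12 renal epithelial markers, all tested, 4 were higher and 3 lower, and of 16 other cadherins and protocadherins 5 were higher and 1 lower. Over all genes 9.69% passed as higher and 9.45% as lower.

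Transcription factors of the kidney lineage differed in both directions. Of 30 tested, 12 were higher and 11 lower, against 9.69% and 9.45% of all genes, while Pax8, which holds tubule identity, did not pass. Eya1, a cofactor of nephron progenitors, had 3.69, 10.2, 7.64 and 3.51 units in VM-3055 against 235, 236, 244 and 243 in VIM-3039 libraries (5.16), and Tbx18, of ureteric mesenchyme, 3.69, 1.7, 4.24 and 1.75 against 215, 214, 233 and 238 (5.94). The stromal progenitor factor Foxd1 was lower, at 548 ± 30.2 and 75.1 ± 8.39 units, and Emx2, of the ureteric bud, higher, at 77.1 ± 6.84 and 555 ± 37.6. Six3, an eye and forebrain factor, had 187 ± 9.54 units in VM-3055 and was under the floor in VIM-3039 cells.

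Hox genes encode position along the body axis, and in each cluster the gene number rises from the 3′ to the 5′ end of the cluster. Of 28 tested, 12 passed as higher and 12 as lower in VIM-3039 cells, against 9.69% and 9.45% of all genes. The grouping by cluster and gene number below was made after the values were seen. In the A cluster the 8 lower genes were Hoxa2 to Hoxa7, Hoxa9 and Hoxa13, and the 1 higher gene was Hoxa11, which had no signal in any VM-3055 library, against 299.6, 288, 294 and 301 units in those of VIM-3039. Hoxa10, next to it, had 1352 ± 75.2 and 988 ± 31.1 units (−0.45), and Hoxa11as, a transcript that overlaps Hoxa11, stood at 0.185 ± 0.369 and 159 ± 12.1. In the B cluster Hoxb2, Hoxb3 and Hoxb4 were lower, and Hoxb5 to Hoxb9 and Hoxb13 were higher. Hoxb2 had 256, 277, 231 and 254 units in VM-3055 against 2.78, 0, 3.28 and 0 in VIM-3039 libraries, and Hoxb4 had 165 ± 19.1 and 25.6 ± 4.44. Hoxb6, 2 genes along, was at 0 in every VM-3055 library against 68.7, 56.8, 57.7 and 53.3 units, and Hoxb9 had 91.7 ± 1.96 and 799 ± 18 (3.11). In the C cluster 5 genes were higher, with Hoxc10 at 56.1 ± 8.04 and 411 ± 17.3 units, and Hoxc9 was lower. No gene of the D cluster could be tested, and 8 of its 9 genes were at 0 in all 8 libraries.

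**Figure D4:**
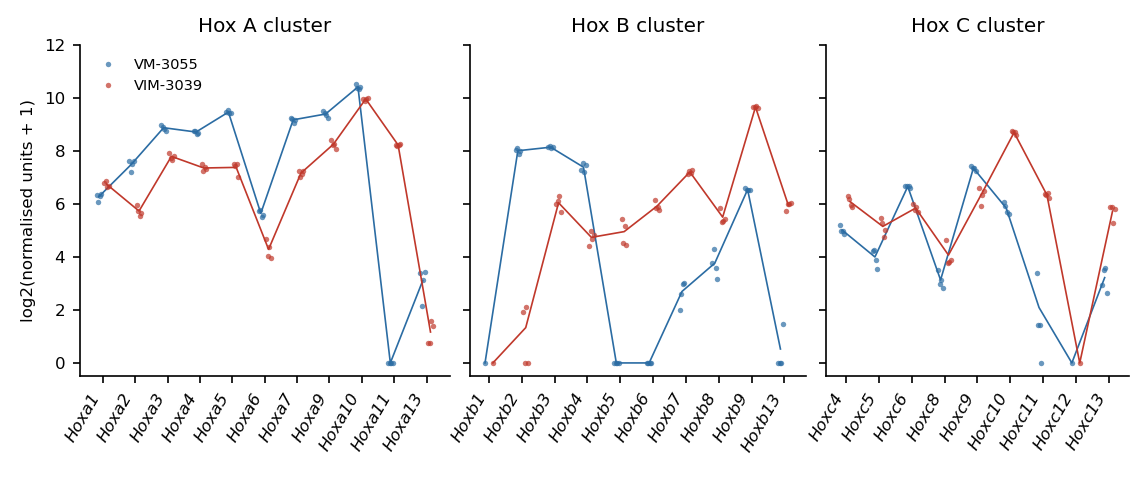
Level as log2(normalised units + 1) of the genes of the Hox A, B and C clusters in order of gene number, in the 4 VM-3055 (blue) and 4 VIM-3039 (red) libraries with Dox; points are libraries and lines join the means. In the B cluster VM-3055 is above VIM-3039 from Hoxb2 to Hoxb4 and below it from Hoxb5 on, and in the A cluster Hoxa11 is at 0 in VM-3055 alone.

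Nephron segment genes were largely silent in both lines, and 10 of 25 proximal tubule and 13 of 29 distal genes could be tested, with 3 higher and 2 lower of the first and 2 and 4 of the second. The shares over all genes were 9.69% higher and 9.45% lower. Havcr1, the kidney injury marker KIM-1, had 4841, 5459, 5297 and 5307 units in VM-3055 against 648, 652, 689 and 578 in VIM-3039 libraries, a log2 difference of −3.02 (adjusted p 2.63e-17). Its direction was the same in tumours, which averaged 8606 units for VM and 1908 for VIM. The creatine synthesis enzyme Gatm stood at 244 ± 22.4 and 977 ± 42.8 units and the water channel Aqp1 at 238 ± 18.3 and 635 ± 56.5, both higher in VIM-3039 cells, while the endocytic receptor Lrp2 did not pass at 4673 and 3407.

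Signalling genes differed in both directions. In the TGF-beta and BMP group 6 of 40 passed as higher and 5 as lower, 27.5% against 19.1% of all genes. Bmp7, a survival ligand of nephron progenitors, had 234, 178, 181 and 203 units in VM-3055 against 9.72, 10.4, 9.19 and 8.89 in VIM-3039 libraries (−4.24). The activin subunit Inhba had 21.1 ± 2.66 and 227 ± 19.3 units, and Fst, which encodes the activin antagonist follistatin, 6.69 ± 2.19 and 215 ± 13.7. The BMP target Id2 did not pass at 3056 and 2043. In the WNT group 8 of 41 passed as higher and 6 as lower (34.1%), with Dkk3, a secreted Dickkopf family member, at 2.22, 2.55, 1.7 and 4.39 units against 629.6, 697, 783 and 641 (7.58), the WNT receptor Ror2 at 283 ± 18.8 and 8.17 ± 2.52 (−5.00) and the ligand Wnt7b at 1329 ± 94.1 and 559 ± 39.9.

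Among 53 receptor tyrosine kinases and ligands tested, 16 passed as higher and 9 as lower, against 9.69% and 9.45% of all genes. The neuregulin receptor Erbb4 had 133 ± 14.4 units in VM-3055 against 4.01 ± 1.35 in VIM-3039 cells, and Fgfr4 had 78.2 ± 11.5 and 5.95 ± 1.72, while the ligand Fgf7 was under the floor in VM-3055 and at 71.6 ± 9.74 in VIM-3039 cells. In the Eph family, 4 higher and 4 lower of 18, the ligand Efnb2 stood at 32.2 ± 3.39 and 708 ± 8.49 units and the receptor Ephb1 at 91.7 ± 18.7 units against values under the floor. Of 29 cytokine genes 8 were higher and 9 lower. Il11, an IL-6 family cytokine, had 55.4, 71.5, 68.8 and 60.5 units against 751, 862, 997 and 761 (3.70), and the IL-33 receptor Il1rl1 had 736 ± 66 and 3069 ± 127. The chemokines Ccl20, at 202 ± 19.5 and 28.7 ± 5.64, and Cxcl2, at 100.2 ± 15.7 and 2.97 ± 1.12, were lower. Of 39 interferon and antigen presentation genes 7 passed as higher and 3 as lower, 25.6% against 19.1% of all genes, with the antiviral membrane protein gene Ifitm3 at 49.5 ± 5.51 and 654 ± 21.7 units, the ubiquitin ligase gene Trim25 at 1713 ± 61.6 and 769 ± 33.3, and B2m, which did not pass, at 3342 and 3599.8.

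Of 35 hypoxia and glycolysis genes tested, 5 were higher and 2 lower, or 7 of 35 against 19.1% of all genes. All 7 were among the 33 with at least 50 units in the higher line, a level at which 12.9% of genes passed. The lactate dehydrogenase gene Ldha had 57732 ± 1459.6 and 58279 ± 552 units (0.01, adjusted p 0.749). Car9, carbonic anhydrase IX, a classical target of HIF-1, had the largest fall of the list, with 302, 258, 267 and 298 units in VM-3055 against 13.9, 3.47, 7.87 and 5.66 in VIM-3039 libraries (−5.15, adjusted p 4.01e-11). The brain aldolase Aldoc had 223 ± 9.41 and 21 ± 2.06 units. The vasodilator peptide gene Adm, at 77.2 ± 5.3 and 292 ± 15.5, and the hexokinase gene Hk1, at 756 ± 6.49 and 1897 ± 39.2, were higher in VIM-3039 cells. The largest rise of the list was that of Lox, under the floor in VM-3055 and at 2071 ± 109 units in VIM-3039 cells. In VM and VIM tumours Car9 averaged 580.4 ± 928 and 554 ± 696 units (SD, n = 3 each), a spread wider than either mean.

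In lipid synthesis, 3 of 31 genes passed as higher and 0 as lower, 9.68% against 19.1% of all genes. All 31 had at least 50 units in the higher line, a level at which 12.9% of genes passed. Another 16 were higher and 8 lower by less than 2-fold at an adjusted p under 0.05. The 3 were the desaturases Scd1, with 652, 627, 695 and 608 units in VM-3055 against 4949.7, 4823, 4866 and 5173 in VIM-3039 libraries (2.94), and Fads1, with 1524 ± 30.5 and 3455 ± 38, and the sterol enzyme Nsdhl. Of 31 NRF2 target and glutathione genes 4 were higher and 3 lower, a share near that of all genes, and the log2 difference was 7.22 for the epoxide hydrolase Ephx1, at 6.17 ± 0.763 and 1063 ± 33.3 units. Heme oxygenase Hmox1 had 782 ± 46.9 and 2659 ± 76.1 units, the cystine transporter Slc7a11 489 ± 29 and 195 ± 6.54 (−1.32), and peroxiredoxin Prdx1 10432 ± 725 and 11841 ± 331 (0.18). Slc7a11 also lies in the first 60 Mb of chromosome 3.

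Genes of some chromosomes differed together. Over genes averaging at least 50 units, the median log2 difference was −0.53 for the 496 genes of chromosome 3, of which 87.3% were lower in VIM-3039 cells and 101 passed as lower against 19 as higher. It was −0.24 for 655 genes of chromosome 5 and 0.33 for 558 genes of chromosome 8, where 18.1% were lower. On chromosome 3 the VM-3055 libraries had medians of 0.24 to 0.27 and the VIM-3039 libraries −0.28 to −0.24, both relative to each gene's mean over the 8 libraries, so each library of a line shows the shift. The exact two-sided permutation p was 0.0286, the smallest that 4 against 4 allows, and 0.0440 after adjustment over 20 chromosomes. Leaving out VIM-3039 replicate 1 or 3 or VM-3055 replicate 2 or 4 took the adjusted p of all 3 chromosomes above 0.05, to 0.0519, 0.0635, 0.0519 and 0.0571, and without any of the other 4 libraries it stayed under 0.05. The raw p of chromosomes 3, 5 and 8 stayed at 0.0286 throughout, again the smallest possible. The adjusted p moved only with the number of other chromosomes that shared it. With all 8 libraries that raw p held for 13 of the 20 chromosomes, many with medians under 0.1 in size. The medians of chromosomes 14, 19 and 7 were −0.12, 0.18 and 0.12.

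**Figure D5:**
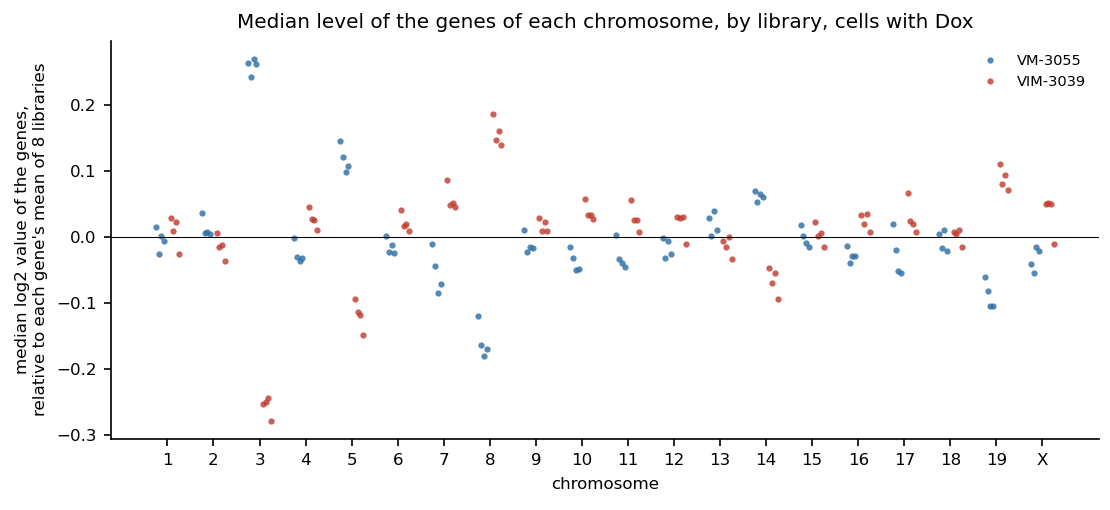
Median log2 level of the genes of each chromosome in each library with Dox, relative to each gene's mean over the 8 libraries, for genes averaging at least 50 units; blue points are VM-3055 and red points VIM-3039 libraries. Chromosome 3 (0.24 to 0.27 against −0.28 to −0.24) and chromosome 5 are lower in VIM-3039, chromosome 8 is higher, and most other chromosomes lie within 0.1 of 0.

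Within chromosome 3 the shift was uneven, in parts set after the chromosome medians were seen. The 108 genes that start in its first 60 Mb had a median of −1.13, with 67 passing as lower and 5 as higher, and the 388 genes beyond had −0.43. Chromosome 5 had the same form, with −0.64 for 186 genes in the first 60 Mb and −0.12 for 469 beyond. Chromosome 8 was higher in each of its bins, with medians of 0.04 to 0.50 over 9 bins of 15 Mb, while the 137 bins of all other chromosomes ranged from −0.45 to 0.26. The passing genes of chromosome 3 with the highest values were 2810407C02Rik, with 8545, 8259.6, 8907 and 8958 units in VM-3055 against 2579, 2745, 2719 and 2408 in VIM-3039 libraries, Serp1, a stress protein of the endoplasmic reticulum, at 6497 ± 214 and 1876 ± 105, and Naa15, a subunit of the N-terminal acetyltransferase NatA, at 6371 ± 139 and 2315 ± 77.6. On chromosome 8 the prohormone-processing gene Cpe was higher, at 3769 and 9054 units, but the adhesion receptor Gpr56, at 3626 and 1477, and Isyna1, which makes inositol phosphate, were lower. Isyna1 had 5815, 5616, 5048 and 5116 units in VM-3055 against 139, 157, 135 and 165 in VIM-3039 libraries, a log2 difference of −5.17 (adjusted p 1.52e-18).

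Set against MYC-2983 cells with Dox, which both comparisons share, the median of chromosome 3 was −0.23 with VM-3055 and −0.76 with VIM-3039, that of chromosome 5 0.20 and −0.06, and that of chromosome 8 −0.56 and −0.23. Without Dox, the medians between VIM-3039 and VM-3055 cells were −0.62, −0.34 and 0.27 for chromosomes 3, 5 and 8. In VIM against VM tumours they were −0.24, −0.01 and 0.03. What sets these medians was not tested.

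Most of the differences between the lines were also present without Dox. Of 2629 passing genes that could also be tested in the 8 libraries without Dox, 2569 (97.7%) had the same direction there, against 80.1% of all genes, and 2049 (77.9%) passed again, against 20.3%. In all, 3141 of 14461 genes (21.7%) passed without Dox. A further 8 passed in the opposite direction. All 17 p53 genes were higher without Dox and 12 of them passed, with Trp53 at 227 and 2248 units and Cdkn1a at 1174 and 2002. Hoxa11, Grb10 and Asz1 were again under the floor in VM-3055 cells.

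Tumours of the 2 genotypes, 3 of each, showed less of the pattern, and 1 of the VM tumour libraries, replicate 2, carries in its title the same number as the VM-3055 line. Of 1652 passing genes averaging at least 50 units in a tumour group, 994 (60.2%) had the direction of the cell lines, close to the 59.4% of all genes, and 275 (16.7%) had it with no overlap between the tumour groups, against 11% of all genes. Without VM tumour replicate 2 the direction was that of the lines in 945 of 1656 passing genes (57.1%) and in 59.2% of all genes. With 3 against 3 libraries no exact test can go below a p of 0.1. Cdkn2a averaged 4013 ± 538 units in VM and 53.1 ± 36.7 in VIM tumours (SD, n = 3 each). Of the 17 p53 genes, 12 were higher in VIM tumours, 2 of them without overlap, and 9 without VM tumour replicate 2, and Trp53 averaged 724 ± 498 and 1046 ± 384 units. In tumour RNA fewer cells of a type and less RNA per cell cannot be told apart.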

How the data were processed

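Per the labels, paired-end libraries came from a stranded mRNA kit, and the strand setting used in counting is not given in the sources used here. The authors aligned reads to mm9 with MapSplice and made RSEM estimated counts per gene, deposited as a signal scaled so that the upper quartile of a library is 1000. Picard (1.64) and SAMtools are named in the submitters' processing notes. From these values, log2(units + 1) was compared between the lines with limma (3.58.1, trended moderation, R 4.3.3) on 8 libraries, for genes above 0 in at least 4, with Benjamini-Hochberg adjustment over all 14060. Depth was 14372900 to 17335300 estimated reads in VM-3055 and 15945300 to 19856300 in VIM-3039 libraries, and intervals and floors cover counting error only. Gene positions were matched by symbol for 96.3% of genes. In simulated data 199 of 200 changed genes were recovered among 14225 tested, and 3 other genes were called. Recovery close to the 2-fold threshold or to the floor was not tested separately.

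The comparison, its 37 gene lists and the tests were chosen with earlier results of these data known. Text genes were drawn from the 12 largest rises and 12 largest falls with at least 50 units in the higher line, and from the engineered genes. Up to 4 passing members per list and the member of highest mean level, and 3 passing genes each of chromosomes 3 and 8, were also candidates. Not all of these are described, among them the large rises of Has2 and 9030617O03Rik and the large falls of Sectm1a and Sult1d1. Others, such as Cdk6, Sesn1, Perp and several Hox genes, were chosen after their values were seen. The authors' own comparisons were not used. Alternatives comprised other pseudocounts, filters and scalings, variance models, a replicate block, left-out libraries and the libraries without Dox.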

Additional observations from a re-analysis of the deposited data

Results flagged for a closer look

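Among 228 sets of 4 libraries examined, 1 library stood far from the other 3 in 9, while 5% would be 11.4 sets. In VIM-3039 cells these were Myc, with a library at 431.7 units against 359.8 to 371.4, Gdf15, with 3423 against 3659 to 3704, and Nr1h5, with 546.3 against 372 to 386.8. In VM-3055 cells they were Phlda3 (78.95 units against 90.89 to 91.91), Cdcp1 (1005 against 1060 to 1066), Itgb1 (12740 against 13940 to 14060), Flna (18740 against 16950 to 17100), Cd24a (4224 against 4690 to 4711) and Erbb4 (154.4 against 124.8 to 126.8).

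For several genes every VIM tumour library lay on the opposite side of the VM tumours from the cell lines. The log2 difference between tumours, VIM minus VM, was 5.03 for Krt7 (−6.88 in cells with Dox), 2.90 for Ppl (−2.89), 1.20 for Col1a2 (−2.05) and 1.09 for Isyna1 (−5.17). It was −1.78 for Emx2 (2.83 in cells with Dox), −1.04 for Itga5 (1.81), −0.83 for Scd1 (2.94) and −0.77 for Hmox1 (1.77). Between cells with and without Dox, Cdh16 had a line difference of 0.09 and −0.30. None of these differences between differences was tested.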

How the results depend on the processing

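Of 112 passing genes checked one by one, 110 passed in the same direction under all 18 alternatives run on the libraries with Dox, and none changed sign. The exceptions were Bax and Ckap2. With a pseudocount of 10, 874 genes were higher and 779 lower, and 866 were lower when a mean of 10 units was required. The numbers at the floor fell to 24 for VM-3055 and to 16 for VIM-3039 when at least 100 units were required in the other line. Without Dox, 1 p53 gene and 2 mitosis genes were lower, and limma voom on estimated reads called 1 mitosis gene lower. Chromosomes 3, 5 and 8 had medians without Dox of −0.62, −0.34 and 0.27, and did not pass after adjustment. Their exact permutation p was 0.0286, the smallest possible, and 0.0635 after adjustment. With Dox more of the other chromosomes shared that smallest p, which lowers the adjusted value.

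The 100-unit limit, the voom fit, the 60 Mb parts, the tumour values without VM tumour replicate 2 and the count without chromosomes 3, 5 and 8 were chosen after seeing the data. A planned count model was not run, since 90.6 to 91.7% of values came out as whole reads and not nearly all.

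Leaving out each library in turn gave 1322 to 1384 higher and 1313 to 1392 lower genes, 2028 to 2048 passing with and without Dox, 43 to 52 and 24 to 34 genes at the floor, 15 to 17 p53 genes higher and 0 lower, and 0 mitosis and ribosome biogenesis genes in either direction. Without VIM-3039 replicate 1 or 3 or VM-3055 replicate 2 or 4 the adjusted p of chromosomes 3, 5 and 8 was 0.0519, 0.0635, 0.0519 and 0.0571, from 0.0440. Their raw exact permutation p stayed at 0.0286, the smallest possible, and only the number of other chromosomes sharing it changed. The medians ranged from −0.53 to −0.51 for chromosome 3, −0.25 to −0.22 for chromosome 5 and 0.32 to 0.34 for chromosome 8.

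The signs that turned were of genes that did not pass. With a library left out Vhl reached 0.099 and Myc ranged from −0.0718 to 0.026, and Myc was 0.12 without Dox, Cdh16 −0.30 and B2m −0.0852. Ldha was −0.0035 with TMM, −0.0199 with voom, −0.33 with quantile normalization, −0.0647 without Dox and from −0.0032 to 0.0253 with a library left out. The cause was not tested.

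Libraries with the same number did not deviate together in a way that pairs them, with correlations of 0.21, −0.0079, 0.10 and −0.074 over 10239 genes. With the number as a replicate block, 1365 genes were higher and 1331 lower, against 1363 and 1328 without it, 2052 passed with and without Dox against 2049, and the p53, mitosis and ribosome biogenesis counts were 17, 0 and 0 as without it. The chromosome medians and the numbers at the floor have no such fit.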
